A study of Homo sapiens with 6 samples.

Results

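Complement is a set of plasma and membrane proteins that tag cells and debris for removal and can open pores in membranes. The 9 complement genes described here were selected on the deposited signals: they were listed by name, with their differences between compound-treated and control arrays known. They are the proteases C1R and C1S, the central component C3, the pore component C7, the soluble regulators SERPING1 and CFI, and the membrane regulators CD46, CD55 and CD59. All 9 had 1 named probe set each among the 17687 genes measured. The cells were SH-SY5Y, an established human neuroblastoma line of sympathetic lineage, differentiated with atRA (all-trans retinoic acid) over 96 h in every sample. The 3 samples labelled 15EN received a bioactive compound at 15 µM, which the series title names as eurycomanone from Eurycoma longifolia root, and the 3 samples labelled VC received the vehicle. The labels do not expand 15EN or state how long the compound was present. Replicates 1, 2 and 3 of each group carry passages 33, 34 and 35 in their titles, and all come from this single line without the blood or liver cells that supply most circulating complement. Beyond the passages, the labels name no separate cultures. Errors and p-values thus cover the spread between arrays, any difference between passages included, and may reflect technical variation.

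In the classical pathway, C1q bound to a target activates the protease pair C1r and C1s, which start the cascade that leads to cleavage of C3. C3 fragments mark the target, and the terminal components, among them C6 and C7, then assemble a pore in its membrane. Host cells limit this with SERPING1 (C1 inhibitor), which blocks C1r and C1s, with factor I (CFI), a protease that degrades C3b and C4b, with CD46, its membrane cofactor, with CD55, which speeds the decay of the C3-cleaving complexes, and with CD59, which stops the pore from forming. Neurons and neuroblastoma cells carry such regulators on their surface, and complement tagging of synapses is known in brain development.

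The values are log2 signals as the authors deposited them, so a difference of 1 is a doubling. The array values carry no detection calls. A gene is called dim here where it lay below the level that 90% of the 612 negative controls did not exceed. This level was 7.41 to 7.51 on the 15EN arrays and 7.55 to 7.99 on the VC arrays. By that measure C7, CD46 and CD59 were above this level on all 6 arrays, and C1R, C1S, C3, SERPING1, CFI and CD55 were below it on all 6. Among all 17687 genes, 7779 were below it on all 6 arrays and 7789 above it on all 6. A dim value alone does not show whether the transcript is present or absent. Signals of different probe sets cannot be set against each other as transcript amounts. The median of the negative controls was 4.75 to 4.86 in 15EN and 4.97 to 5.06 in VC, so the background was lower in 15EN. A small fall of a dim gene cannot be told from that shift. Array medians over genes were 7.60 to 7.71, and 15EN replicate 3 stood apart from the other treated arrays, correlating with them at Pearson's r of 0.979 and 0.980 over all probe sets against 0.991 between 15EN replicates 1 and 2. With the VC arrays it correlated at 0.971 to 0.973, above the 0.966 to 0.968 of 15EN replicates 1 and 2. Its place nearer to the controls is thus not particular to the genes named below. Differences of the 9 genes are therefore also given without 15EN replicate 3, and those of other genes where the call, the sign or the size by over 1.5 times depended on it. Of the 12 measured markers of noradrenergic neuroblastoma cells, the labelled identity, 8 were above the negative control level on all 6 arrays and 2 were below it. GATA3, a transcription factor of this lineage, was among the 8 (12.80 ± 0.13 in 15EN, 12.72 ± 0.27 in VC, SD, n = 3). In the comparison described below, 7 of the 12 were called lower in 15EN, where 9.09% of all genes were, and GATA3 was not among these.

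The 250 bases before the gene's annotated 5′ end are shown for the 3 genes well above background and for CD55, since CD55 and CD46 lie in the same gene cluster and differed in opposite directions. The sequences are from RefSeq (GRCh38.p14), written on the gene's strand. The table lists 4 starts for CD59, 2 for CD46 and 2 for C1R, and the start at the 5′ end of the RefSeq gene was used. The C7 stretch is chr5:40909247-40909496 on the plus strand, that of CD46 chr1:207751788-207752037 on the plus strand, that of CD55 chr1:207321428-207321677 on the plus strand and that of CD59 chr11:33736480-33736729 on the minus strand. Capitals mark letters that match any of the motifs described after the sequences.
C7: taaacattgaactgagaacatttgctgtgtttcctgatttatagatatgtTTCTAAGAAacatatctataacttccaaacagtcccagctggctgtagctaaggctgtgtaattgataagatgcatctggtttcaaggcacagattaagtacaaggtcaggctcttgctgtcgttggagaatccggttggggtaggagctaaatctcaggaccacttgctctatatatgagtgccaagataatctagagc
CD46: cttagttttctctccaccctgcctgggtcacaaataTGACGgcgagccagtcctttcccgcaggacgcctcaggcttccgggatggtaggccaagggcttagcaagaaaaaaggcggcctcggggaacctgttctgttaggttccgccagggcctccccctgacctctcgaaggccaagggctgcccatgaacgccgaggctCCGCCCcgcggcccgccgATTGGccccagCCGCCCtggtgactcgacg
CD55: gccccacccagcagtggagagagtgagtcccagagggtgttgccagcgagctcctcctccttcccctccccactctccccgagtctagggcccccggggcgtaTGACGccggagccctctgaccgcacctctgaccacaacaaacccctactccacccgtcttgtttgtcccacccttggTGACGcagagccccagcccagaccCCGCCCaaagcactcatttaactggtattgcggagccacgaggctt
CD59: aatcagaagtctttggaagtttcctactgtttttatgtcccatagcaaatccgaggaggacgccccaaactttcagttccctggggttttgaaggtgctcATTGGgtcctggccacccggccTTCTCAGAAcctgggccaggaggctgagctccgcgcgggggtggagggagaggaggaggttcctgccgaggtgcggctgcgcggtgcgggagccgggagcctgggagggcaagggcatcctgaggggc
The table of starts held 6 of the 9 genes, without C1S, C3 and SERPING1. The C7 stretch was poor in G and C (40.8%) with a CpG count of 2, against 64.8%, 64.0% and 62.0% in CD46, CD55 and CD59, with CpG counts of 19, 12 and 12. The median over all 35116 windows in the table was 58.0%, with a CpG count of 11. For CFI and C1R the shares of G and C were 38.0% and 54.0%.

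Both strands were searched for 7 motifs, and a match is a description of letters only. The STAT-type GAS motif TTCNNNGAA occurred in C7 and CD59, and in 6.57% of all windows. The half-site TGACG of cAMP response elements occurred in CD46, in C1R and at 2 places in CD55, and in 21.2% of all windows. The box CCAAT occurred in CD46, CD59 and CFI (32% of windows) and GGGCGG in CD46 and CD55 (42.6%). The interferon-stimulated response element (3.02%), the AP-1 motif TGANTCA (6.57%) and the antioxidant-type core TGACNNNGC (10.9%) had no match in these 6 windows. TGACG and TGACNNNGC share their first letters, so a site could have counted for both.

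**Figure D1:**
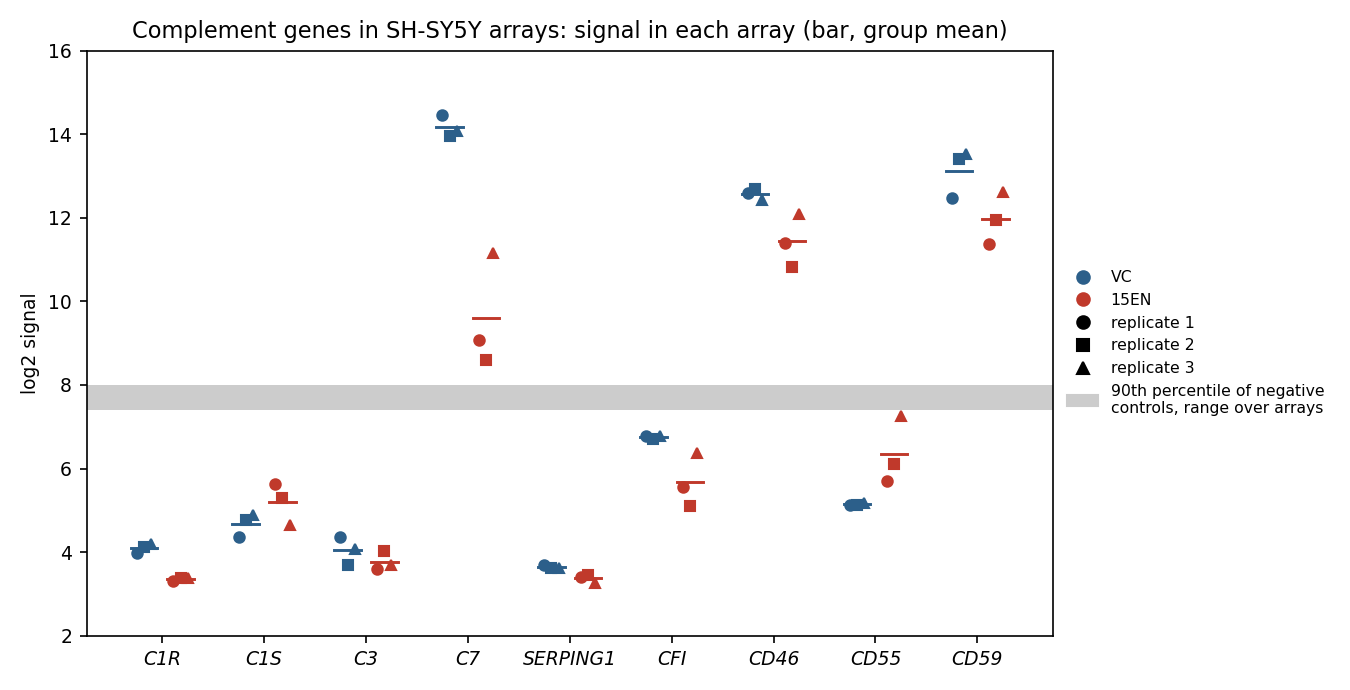
Log2 signal (vertical axis) of the 9 complement genes in each of the 6 arrays, with VC in blue and 15EN in red, symbols for the replicate number, bars for group means, and a grey band for the range over arrays of the 90th percentile of the negative controls. C7 lies at 13.97 to 14.46 in VC and 8.60 to 11.17 in 15EN, and 6 of the 9 genes lie below the band throughout.

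The 15EN and VC arrays were compared with limma across all 17687 genes. With 15EN against VC, 5 of the 9 genes were lower (C7, CD59, CD46, CFI and C1R) and 1 was higher (CD55) at a Benjamini-Hochberg adjusted p under 0.05. Among all genes 21.4% passed, 12.3% as higher and 9.09% as lower. The 9 genes were listed with this contrast known, so these calls describe the genes, no p is given for them and nothing is read from their share. The median log2 difference over the 9 genes was -0.73, beside 0.01 over all genes, and that median is the value of C1R, which was dim. A lower mean in 15EN was seen in 7 of the 9, and in 8627 of all 17687 genes. The values of the 2 groups did not overlap for 6 of the 9 genes, with 15EN lower in 5 and higher in 1. Among all genes the groups did not overlap for 36.3%, 19.7% as higher and 16.6% as lower. In bulk RNA, fewer cells that carry a transcript and less of it per cell cannot be told apart.

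C7, the component that anchors the nascent pore in the membrane, had the largest difference of the 9. Its log2 signal was 14.46, 13.97 and 14.08 in VC replicates 1, 2 and 3. In 15EN replicates 1, 2 and 3 it was 9.07, 8.60 and 11.17. Every treated array was thus below every control array, and the highest treated value, in replicate 3, differed by -2.91 from the control of its passage, against -5.39 and -5.37 in replicates 1 and 2. C7 fell by 4.56 ± 0.54 (SE) on the log2 scale, from a mean of 14.17 ± 0.25 to 9.61 ± 1.37 (SD, n = 3), which is 23.5-fold as VC over 15EN. In order of difference it ranked 5 from the lowest of 17687 genes. The difference was -5.33 without 15EN replicate 3, ran from -4.66 to -4.05 with any other single array left out, and passed the threshold each time. The C7 signal stayed above the negative control level in the treated arrays.

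CD59, the GPI-anchored inhibitor of the membrane pore, had log2 signals of 12.47, 13.40 and 13.52 in VC and 11.37, 11.94 and 12.62 in 15EN. The groups overlapped, since 15EN replicate 3 lay above VC replicate 1. Within each passage the treated array was lower, with differences of -1.10, -1.46 and -0.91. CD59 fell by 1.16 ± 0.36 (SE), 2.23-fold as VC over 15EN. Without 15EN replicate 3 the difference was -1.47, which passed.

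CD46, the transmembrane cofactor for factor I, had log2 signals of 12.59, 12.69 and 12.43 in VC and 11.39, 10.82 and 12.10 in 15EN. The groups did not overlap, and replicate 3 had the smallest difference within a passage (-0.32, against -1.20 and -1.87 in replicates 1 and 2). CD46 fell by 1.13 ± 0.30 (SE), 2.19-fold as VC over 15EN. Without 15EN replicate 3 the difference was -1.46, which passed. CFI, which encodes the protease that CD46 assists, was dim, with 6.78, 6.70 and 6.77 in VC and 5.55, 5.11 and 6.37 in 15EN. It fell by 1.08 ± 0.30 (SE), its differences within passages were -1.23, -1.59 and -0.41, and without 15EN replicate 3 the difference was -1.42, which passed. The VC arrays were close together for CFI (SD 0.04) and the 15EN arrays were not (SD 0.64), the same contrast in spread as for CD46 (0.13 and 0.64) and C7 (0.25 and 1.37).

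CD55, the GPI-anchored decay accelerator, was the only one of the 9 that was called higher. Its log2 signals were 5.12, 5.13 and 5.17 in VC and 5.69, 6.10 and 7.26 in 15EN, all dim. The groups did not overlap, and the array that lay closest to the controls for C7, CD46 and CFI, 15EN replicate 3, was farthest from them here. CD55 rose by 1.21 ± 0.35 (SE), 2.31-fold as 15EN over VC, and by 0.57, 0.97 and 2.09 within passages. Without 15EN replicate 3 the difference was 0.75 and still passed. Because the VC level was near the middle of the negative controls (51.5% to 55.4% of them lay below it), the size of this rise is uncertain. CD55 and CD59 thus differed in opposite directions, although the proteins share a type of membrane anchor.

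**Figure D2:**
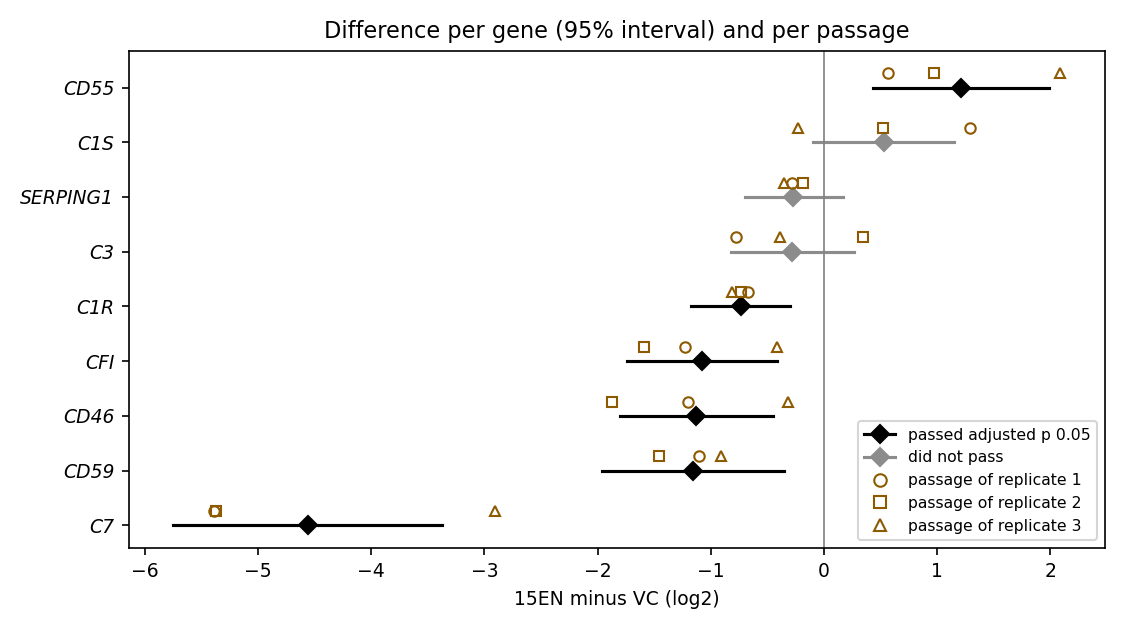
Difference between 15EN and VC on the log2 scale (horizontal axis) for each of the 9 genes, with diamonds and 95% intervals of the limma fit in black where the gene passed adjusted p 0.05 and grey where it did not, and open symbols for the difference within each passage. C7 is at -4.56, CD59, CD46 and CFI are between -1.16 and -1.08, and CD55 is at 1.21.

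The early components were dim. C1R, the protease that activates C1s, had log2 signals of 3.97, 4.12 and 4.19 in VC and 3.30, 3.39 and 3.38 in 15EN. It fell by 0.73 ± 0.20 (SE; -0.74 without 15EN replicate 3) with groups that did not overlap, at a level where 11.1% to 29.7% of the negative controls were lower still. A change in transcript is hard to tell from a change in background there. C1S, which cleaves C4 and C2, had 4.35, 4.77 and 4.89 in VC and 5.64, 5.29 and 4.66 in 15EN, with a difference of 0.53 (95% interval -0.10 to 1.15). The groups overlapped and the call was not made, although C1S passed without 15EN replicate 3 (0.80). C1R and C1S, whose genes are neighbours with no protein-coding gene between them in RefSeq, therefore had differences of opposite sign, both dim. C3 had 4.37, 3.68 and 4.07 in VC and 3.59, 4.03 and 3.68 in 15EN, and its difference of -0.28 (95% interval -0.82 to 0.27) did not pass, nor did that of -0.23 without 15EN replicate 3. SERPING1 had 3.68, 3.63 and 3.62 in VC and 3.40, 3.46 and 3.27 in 15EN. Its groups did not overlap, yet the difference of -0.27 (95% interval -0.70 to 0.17) did not pass, nor did that of -0.22 without 15EN replicate 3, and 10.5% to 17.2% of the negative controls were lower.

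All 6 calls held without 15EN replicate 3, and those other than C7 were lost without some of the other arrays. The 5 lower calls became 1 when 15EN replicate 1 or 2, VC replicate 2 or VC replicate 3 was left out, and 2 without VC replicate 1 (C7 in each, with CD59 in the last), and stayed 5 without 15EN replicate 3. CD55 lost its call without 15EN replicate 2 or any VC array, and without 15EN replicate 3 the higher calls were 2, CD55 and C1S. Each smaller fit has fewer degrees of freedom, and among all genes the share that passed fell to between 12.8% and 15.2% in those 5 fits and rose to 30.9% without 15EN replicate 3. The differences of CD59, CD46, CFI, C1R and CD55 kept their sign in all 6 of these fits. A further scaling matters for the smaller differences. The hybridization controls were dimmer in 15EN (10.31 to 10.60 against 11.22 to 11.37 in VC), and when arrays were scaled to equalize them the median gene moved from 0.01 to 0.88. This scaling adds the same amount to every gene's difference. The differences became -3.69 for C7, which passed, -0.29 for CD59, -0.26 for CD46, -0.21 for CFI and 0.13 for C1R, which did not, and 2.08 for CD55, which passed.

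**Figure D3:**
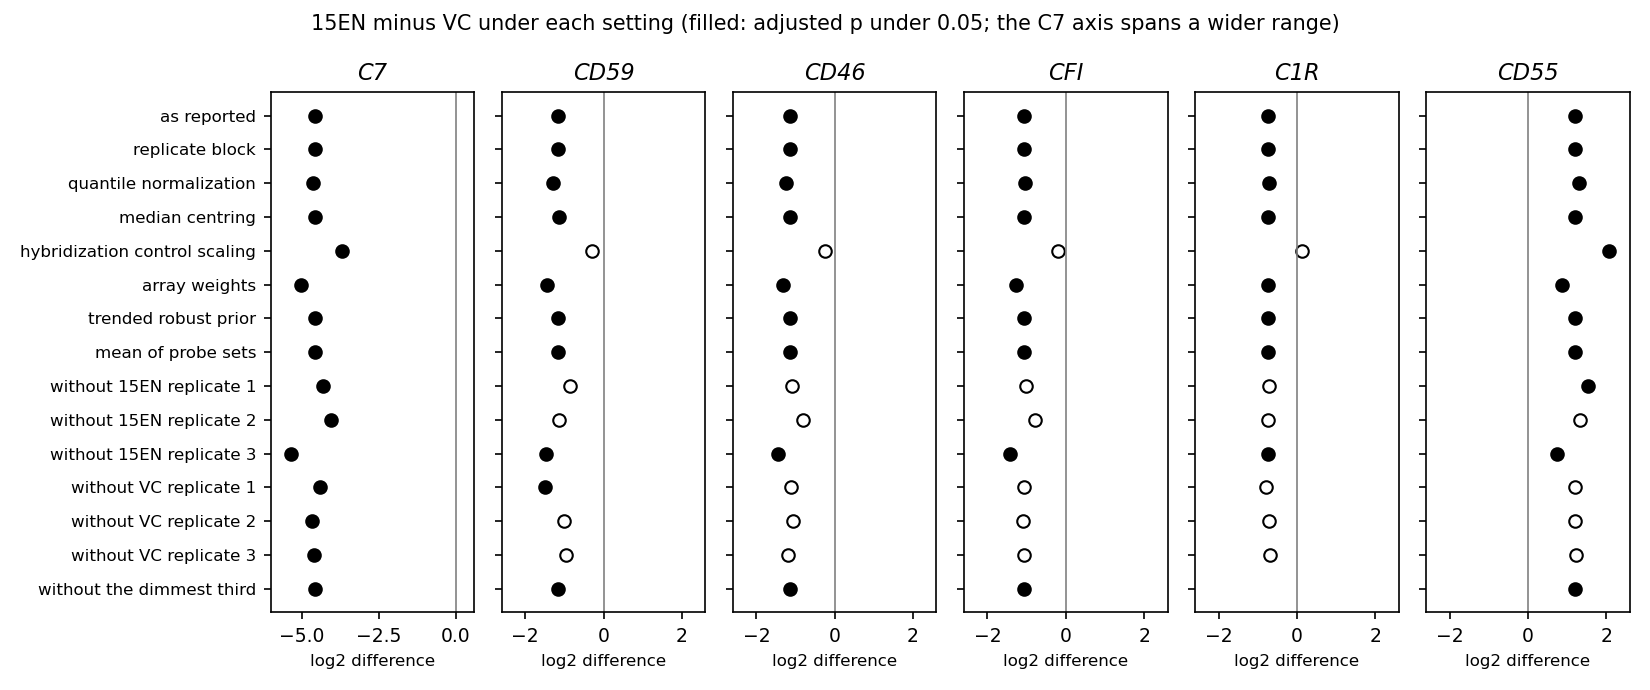
Log2 difference between 15EN and VC (horizontal axis; the C7 panel spans a wider range) for the 6 called genes under each setting (vertical axis), filled where adjusted p was under 0.05; C1R has no point in the last line because it was among the dimmest genes left out there. C7 is filled in every line, and the other 5 genes are open in at least 4 of them.

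Other complement genes were compared in the same fit, from a list written with earlier results of these data known. Of 56 listed, 49 were measured, and 44 of these were dim on all 6 arrays. By limma, 1 of the 49 was higher and 0 were lower at adjusted p under 0.05, with 1 higher and 1 lower at an unadjusted p under 0.05, and their median difference was 0.02. Over all genes 21.4% passed, with a median of 0.01. The gene that rose was ITGAM, the alpha chain of complement receptor 3, with log2 signals of 5.30, 5.21 and 5.26 in VC and 6.26, 6.37 and 5.83 in 15EN (0.90 ± 0.22 SE, limma adjusted p = 0.0149). It was dim on all 6 arrays and lost its call when 15EN replicate 1 or 2, VC replicate 2 or VC replicate 3 was left out. ITGAM is also a marker of myeloid cells, and of the 10 such markers measured it was the only one that passed, 9 were dim on all 6 arrays, and their mean level was 5.75 to 5.96 in 15EN and 5.72 to 5.91 in VC. The part of such cells in the result was not tested.

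**Figure D4:**
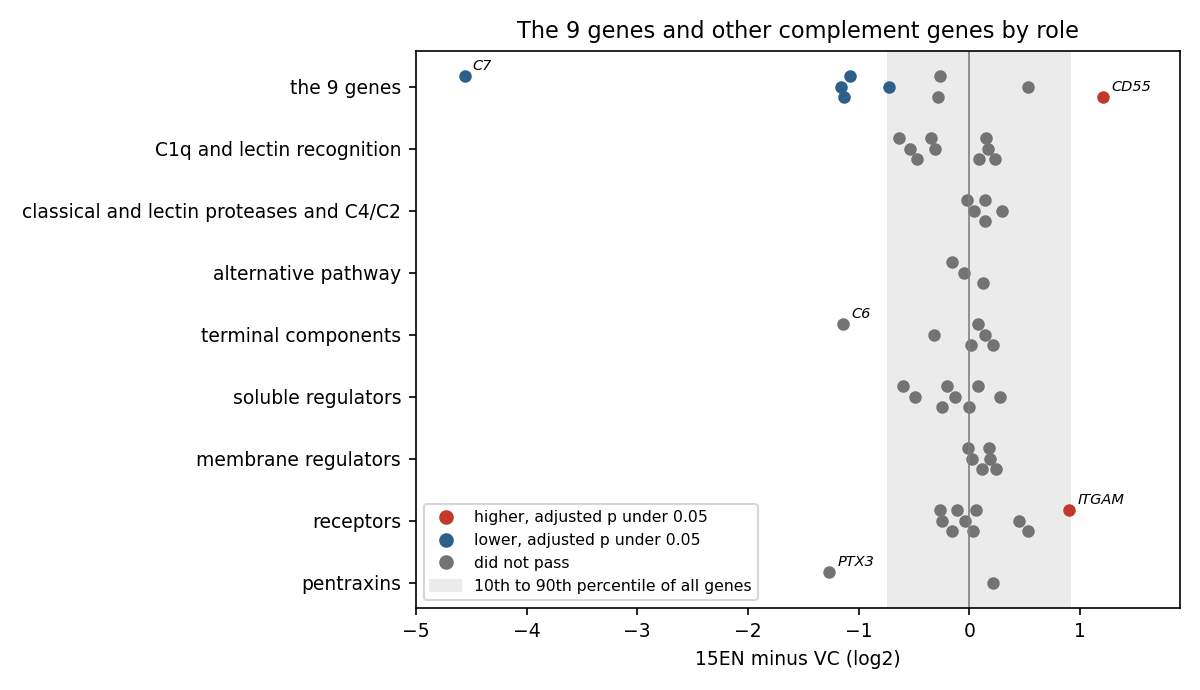
Log2 difference between 15EN and VC (horizontal axis) for the 9 genes and the 49 other measured complement genes, 1 point per gene, in lines by role, red or blue where adjusted p was under 0.05, with the 10th to 90th percentile of all genes in grey (-0.74 to 0.92). C7 stands far to the left at -4.56, and apart from ITGAM no gene outside the 9 is coloured.

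C6, the terminal component that binds just before C7, is encoded close to it, with MROH2B as the protein-coding gene between them in RefSeq. C6 was dim, with log2 signals of 5.48, 6.04 and 5.66 in VC and 4.25, 3.86 and 5.64 in 15EN. Replicates 1 and 2 of 15EN were below every control and replicate 3 was level with them. The difference was -1.14 ± 0.40 (SE), which did not pass (limma adjusted p = 0.0703), but passed with the passage as a block (adjusted p = 0.0417) and without 15EN replicate 3 (-1.67, adjusted p = 0.000467). MROH2B, also dim, did not pass (0.23 ± 0.27 SE, limma adjusted p = 0.632; -0.05 without 15EN replicate 3). Of the other terminal components, C5 was above the negative control level on all 6 arrays and did not pass (0.21 ± 0.26 SE, limma adjusted p = 0.661; 0.37 without 15EN replicate 3).

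PTX3, a soluble pattern recognition protein that binds C1q, showed the same split among treated arrays. Its log2 signals were 12.82, 13.03 and 12.90 in VC and 10.53, 11.07 and 13.34 in 15EN. Replicates 1 and 2 of 15EN were below every control and replicate 3 was above every control. The difference of -1.27 ± 0.57 (SE) did not pass (limma adjusted p = 0.156), and without 15EN replicate 3 it was -2.11 (adjusted p = 8.72e-05). Without that array 4 other complement genes were lower, C6, PTX3, C1QA (-0.73) and COLEC10 (-0.74), and 2 were higher, ITGAM (1.06) and the C5a receptor C5AR1 (0.89). In that fit 30.9% of all 17687 genes passed, 2240 as lower and 3227 as higher, so nothing is read from these counts. C1QBP, a mitochondrial and cell surface protein that binds C1q, was also bright and did not pass (0.45 ± 0.23 SE, limma adjusted p = 0.217), nor did C1RL, a protease related to C1R (0.04 ± 0.30 SE, adjusted p = 0.953; -0.21 without 15EN replicate 3).

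Among the genes of highest level in the other roles, the collectin COLEC11 had log2 signals of 8.85, 9.03 and 9.05 in VC and 8.90, 8.74 and 7.38 in 15EN. Only 15EN replicate 3 stood below the controls by more than their own range. The difference of -0.64 ± 0.36 (SE) did not pass (limma adjusted p = 0.267), and without that array it was -0.15 (adjusted p = 0.621). VTN (vitronectin), which binds the assembling pore, had a difference of -0.60 ± 0.28 (SE) that did not pass (limma adjusted p = 0.171). The differences of FCN1 (0.09), C2 (-0.02), CFP (-0.05), CFD (-0.16), SRPX2 (-0.20), CSMD2 (0.18), CSMD1 (-0.01), ITGAX (-0.25) and CRP (0.21) did not pass either, and all 9 were dim on all 6 arrays. Without 15EN replicate 3 the differences were -0.38 for FCN1, 0.36 for CSMD2 and 0.08 for CSMD1.

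The 2 genes with array profiles nearest to each of C7, CD59 and CD55 were found by the root mean square difference of the 6 log2 signals after subtracting each gene's VC mean. Nearest to C7 were LRRC17, a leucine-rich repeat protein (0.49), and KIT, the receptor of stem cell factor (0.60). LRRC17 fell by 4.11 ± 0.35 (SE, limma adjusted p = 0.00015) and KIT fell by 5.18 ± 0.36 (adjusted p = 6.44e-05). KIT read 15.50, 15.63 and 15.29 in VC and 10.22, 9.52 and 11.14 in 15EN. Nearest to CD59 were BLOC1S5-TXNDC5, a readthrough locus (0.09), and EMB (0.12), and nearest to CD55 were STOM (0.17) and NANOS1 (0.17). Of these STOM rose (1.19 ± 0.31 SE, limma adjusted p = 0.0193), EMB fell by 1.15 ± 0.31 (adjusted p = 0.0246), and NANOS1 did not pass (0.99 ± 0.36 SE, adjusted p = 0.0775; 0.51 without 15EN replicate 3). BLOC1S5-TXNDC5 fell by 1.21 ± 0.37 (SE, limma adjusted p = 0.0407). The signal of a readthrough locus cannot be told from that of its parent genes here. The likeness covers 6 arrays in 2 groups and is a description. Because these genes were picked for it, their direction and their pattern over the treated arrays follow from the choice. Their adjusted p-values are descriptive for the same reason.

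**Figure D5:**
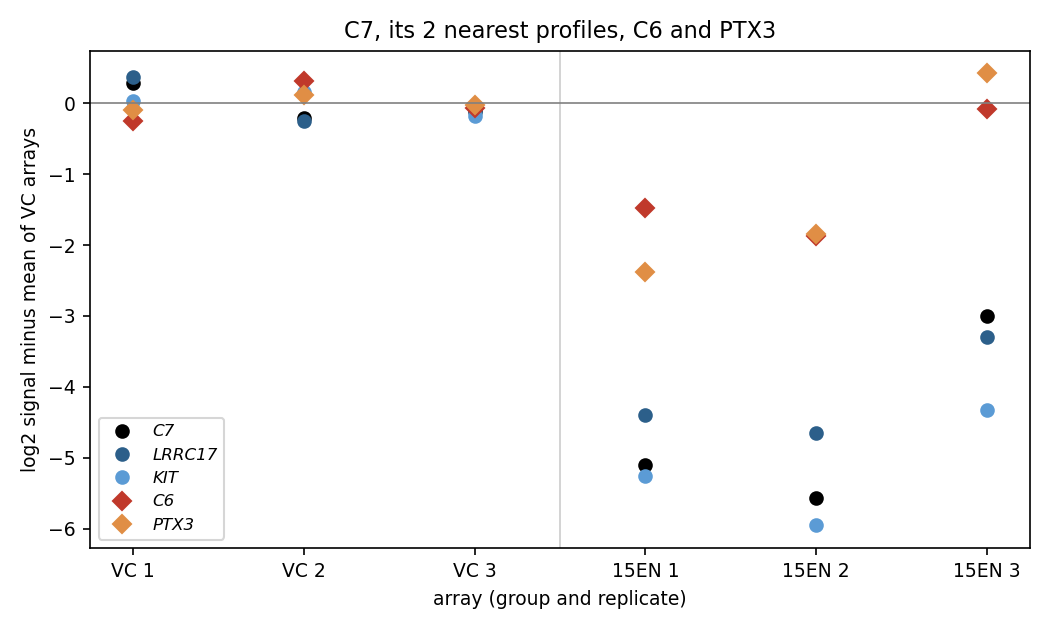
Log2 signal minus the mean of the VC arrays (vertical axis) in each array (horizontal axis) for C7, its 2 nearest profiles LRRC17 and KIT, and the complement genes C6 and PTX3. In 15EN replicate 3 C6 and PTX3 lie at the control level or above it, while C7, LRRC17 and KIT are well below it.

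CD55 and CD46 belong to the regulators of complement activation cluster, with the receptor genes CR2, CR1 and CR1L between them in RefSeq. These 3 were dim and did not pass, with differences of 0.06 ± 0.24, 0.19 ± 0.22 and 0.11 ± 0.24 (SE, limma adjusted p = 0.913, 0.639 and 0.819). Without 15EN replicate 3 they were -0.16, 0.04 and -0.10. The sequences printed for CD55 and CD46 both hold the half-site TGACG and GGGCGG, and the genes differed in opposite directions.

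CD55 and CD59 reach the surface on a GPI anchor, and genes of anchor synthesis and transfer were compared for that reason. Of 29 listed, 26 were measured, 2 were higher and 1 was lower by limma, where 12.3% of all genes were higher and 9.09% lower. The median difference was 0.01, as over all genes. PIGA, part of the enzyme that starts the anchor, rose by 0.79 ± 0.19 (SE, adjusted p = 0.0162). DPM1, part of the enzyme that supplies its mannose, rose by 1.22 ± 0.29 (adjusted p = 0.0126). PIGS, part of the complex that attaches the anchor to proteins, fell by 1.27 ± 0.23 (adjusted p = 0.00344). The lower calls were 2 with the passage as a block and 5 without 15EN replicate 3, and the higher calls were 1 without VC replicate 1 and 0 without VC replicate 2 or 3. Without 15EN replicate 3, 2240 of all 17687 genes were lower.

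Receptors, kinases and transcription factors known to induce complement genes were mixed in direction. Of 25 listed, 20 were measured, with 2 higher and 4 lower by limma, beside 12.3% and 9.09% of all genes, and a median difference of 0.01, as over all genes. RELA, a subunit of NF-kappaB, read 12.35, 12.25 and 11.72 in VC and 13.85, 14.53 and 14.06 in 15EN and rose by 2.04 ± 0.26 (SE, adjusted p = 0.000637). Among the genes of interferon signalling, the receptor chains IFNGR2 and IFNAR2 changed by -1.59 ± 0.27 (adjusted p = 0.00242) and -1.98 ± 0.38 (adjusted p = 0.00463), and IRF9, which acts downstream of them, fell by 1.21 ± 0.22 (adjusted p = 0.0038). In these genes all treated arrays, replicate 3 included, lay on the same side of the controls. The higher calls were 4 with the passage as a block and 4 without 15EN replicate 1.

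Markers of cell types were compared beside the 9 genes, and 0 hepatocyte, endothelial or glial markers were called. Of 12 measured noradrenergic markers, 7 fell, where 9.09% of all genes did, and their mean level was 10.16 to 10.29 in 15EN and 10.98 to 11.27 in VC. Among these, STMN2, a neuronal microtubule regulator, fell by 1.72 ± 0.22 (SE, limma adjusted p = 0.000687). DBH, the enzyme that makes noradrenaline, fell by 1.59 ± 0.23 (SE, limma adjusted p = 0.00112). DBH was below the negative control level on 2 15EN arrays, so the size of its fall is uncertain. GATA3 did not pass (0.07 ± 0.22 SE, limma adjusted p = 0.872). Of 8 fibroblast markers, 2 fell, COL1A1 (-0.88, adjusted p = 0.0393) and THY1 (-0.79, adjusted p = 0.0459), with mean levels of 9.14 to 9.84 in 15EN and 9.68 to 10.13 in VC. COL1A1 was below the negative control level on 2 15EN arrays and 1 VC array. The differences of the 8 ran from -1.07 to 0.44, and 5 of them were negative, so these markers did not move as 1 group. The 10 hepatocyte markers and the 6 Schwann cell and glial markers were dim on all 6 arrays, as were 6 of 7 endothelial markers. Their mean levels in 15EN and VC were 4.35 to 4.88 and 4.62 to 4.86 for hepatocytes, 4.49 to 4.72 and 4.47 to 4.86 for glia, and 4.61 to 5.31 and 4.99 to 5.35 for endothelium. The part of these shifts in the values of the 9 genes was not tested.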

How the data were processed

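RNA of SH-SY5Y cells was measured on 6 Affymetrix whole-transcript arrays of 1 colour, 3 labelled 15EN and 3 VC, from 100 ng of total RNA each, per the labels' protocols. The values are log2 signals that the authors deposited, made with the Transcriptome Analysis Console per the submitters' processing notes. Not given in the sources used here are its version, the normalization, the summarization or the build, and the log2 scale was judged from the values. Probe sets were named by the platform annotation, and of 21448 gene probe sets 17709 carried 1 symbol, 0 several and 3739 none. All 17709 Entrez identifiers matched RefSeq genes (GRCh38.p14) and 0 symbols changed. The probe set of highest mean was kept per gene (22 set aside), which left 17687 genes with no filter on dim signals.

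The fit of 15EN against VC used limma 3.58.1 under R 4.3.3 (lmFit, then eBayes, group as the only term, two-sided, Benjamini-Hochberg over all genes, threshold 0.05), tested on simulated data. The number of arrays limits the precision. Samples with the same replicate number share a passage in their titles (all descriptions name passage 33), and their deviations from group means correlated at 0.229, 0.162 and 0.133, against -0.138 to -0.0165 for different numbers, so the passage was tried as a block. Other alternatives were quantile normalization, median centring, hybridization control scaling, omission of the dimmest genes (11986 kept), array weights, a trended robust prior, the mean of probe sets, and omission of each array. The 9 genes and all lists were chosen with earlier results of these data known. Named beside the 9 were the other complement genes past the threshold and up to 2 of highest mean per role, up to 4 of smallest p among called genes of other lists, the neuroblastoma markers GATA3 and DBH (a further marker of the rule is not reported here) and up to 2 called genes per marker list, and the 2 nearest profiles of 3 genes. Neighbouring genes, C1QA, COLEC10 and C5AR1 were named after their values were seen.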

Additional observations from a re-analysis of the deposited data

How the results depend on the processing

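Over the 14 alternatives, the log2 difference of C7 passed each time. Of the counts of calls (higher and lower), those of the 9 genes became 3 and 1 under hybridization control scaling and had 2 higher under array weights, and ranged from 0 to 2 and from 1 to 5 with an array left out. Other complement genes had 38 higher under that scaling, 2 higher and 4 lower under array weights, and 1 lower with the passage as a replicate block, with 0 to 2 and 0 to 4 when an array was left out. Anchor genes had 16 and 0 under that scaling, 4 lower under array weights, and 2 lower with the block, quantile normalization, a trended prior or without the dimmest genes, with 0 to 2 and 1 to 5 when an array was left out. Inducers had 13 and 1 under that scaling and 4 higher with the block, with 2 to 4 higher when an array was left out. Coagulation genes had 8 and 0 under that scaling, with 0 to 1 and 2 to 5 when an array was left out. The block changed no call of the 9 genes. Among all genes 71.2% passed under hybridization control scaling, 30.5% under array weights, 23.8% with the block and 30.9% without 15EN replicate 3. Differences changed sign under hybridization control scaling for C1R (0.13), C3 (0.59), SERPING1 (0.60), COLEC11 (0.23), C2 (0.85), CFP (0.82), CFD (0.71), VTN (0.27), SRPX2 (0.67), CSMD1 (0.86), ITGAX (0.62), F10 (0.09) and THY1 (0.08). They did so under array weights for FCN1 (-0.19), C1RL (-0.18), CFP (0.01), CSMD1 (0.04), CR2 (-0.10) and CR1L (-0.03), and under quantile normalization for C1RL (-0.01), CSMD1 (0.03) and GATA3 (-0.03). With an array left out, the sign changed for FCN1 (-0.38 to 0.46), C1RL (-0.21 to 0.26), C2 (-0.09 to 0.05), CFP (-0.17 to 0.07), CSMD1 (-0.09 to 0.08), GATA3 (-0.07 to 0.20), MROH2B (-0.05 to 0.42), CR2 (-0.16 to 0.18) and CR1L (-0.10 to 0.23), and without 15EN replicate 3 in all of these but C2, CFP and GATA3. Scaling adds a constant and omitting an array leaves fewer samples, and other causes were not tested. Dim signals limit 6 of the 9 genes.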

Other observations

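Proteases and serpins of the contact, coagulation and fibrinolysis systems, some of which SERPING1 also inhibits, were compared in the same limma fit. Of 17 listed, 16 were measured, 11 of them dim on all 6 arrays, with 1 higher, 4 lower and a median difference of -0.24. Over all genes 12.3% were higher and 9.09% lower, with a median of 0.01. SERPINF1, a secreted serpin known as pigment epithelium-derived factor, fell by 1.59 ± 0.30 (SE, adjusted p = 0.00439) and was above the negative control level on all 6 arrays. PLAU, the urokinase that activates plasminogen, fell by 1.32 ± 0.28 (adjusted p = 0.00786) and was below that level on the 3 15EN arrays. F10, coagulation factor X, fell by 0.78 ± 0.23 (adjusted p = 0.036) at a dim level. KLKB1, plasma prekallikrein, read 4.85, 4.69 and 4.64 in VC and 8.25, 7.22 and 5.18 in 15EN. It rose by 2.16 ± 0.60 (SE, limma adjusted p = 0.0267), and treated replicate 3 was the array nearest to the controls. KLKB1 was below the negative control level on the 3 VC arrays and on 2 15EN arrays, so the size of this rise is uncertain. The KLKB1 difference was 3.01 without 15EN replicate 3 (adjusted p = 4.68e-05) and 1.47 without 15EN replicate 1 (adjusted p = 0.0738). The 1 higher call became 0 without 15EN replicate 1 or 2 or any VC array, and the 4 lower calls became 2 when 15EN replicate 1 or 2, VC replicate 2 or VC replicate 3 was left out.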
